A study of Rattus norvegicus with 6 samples.

Results

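The genes described here are 9 genes of macrophage supply and identity, read in the lungs of rats that had inhaled silica. They are the growth factor genes Csf1 and Csf2, the receptor genes Csf1r and Csf2rb, the chemokine gene Cx3cl1 with its receptor gene Cx3cr1, the engulfment receptor gene Mertk, the surface marker gene Adgre1 and the transcription factor gene Spi1. They were chosen by name, with earlier results of these data known, and every probe set annotated to 1 of them alone was taken. That gave 13 probe sets for 8 of the 9 genes, out of 31042 probe sets compared and 14217 named genes. No probe set carried Spi1 as its only gene name in the annotation used, so Spi1 was not analysed here. Csf1 had 4 probe sets, Csf2 and Mertk had 2 each, and the other genes had 1 each. Where a gene had several, the brightest over all arrays leads.

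Lung RNA came from rats of the Lewis strain, with 1 array for each animal. The silica group held 3 rats that breathed aerosolised silica at 6.2 mg/m3, on 5 days a week and for 6 hours a day, over 6 weeks. The control group held 3 rats kept on filtered air under similar conditions. The age and sex of the rats, and the time from the last exposure to tissue collection, are not stated in the labels. Signals are linear array units. Log2 fold changes are silica minus control computed after adding 16 to each signal, which shrinks the change of dim probe sets, and are given as estimate ± SE.

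Macrophages and their monocyte precursors depend on growth factors for survival and renewal. Csf1 encodes macrophage colony-stimulating factor, which acts through the tyrosine kinase encoded by Csf1r. Csf2 encodes granulocyte-macrophage colony-stimulating factor, which acts through a specific alpha chain and the beta chain encoded by Csf2rb, and which mice need for alveolar macrophages to mature and clear surfactant. Cx3cl1 encodes fractalkine, a chemokine anchored in the membrane of endothelial and epithelial cells that holds and attracts cells carrying the Cx3cr1 receptor. Spi1 encodes PU.1, the transcription factor that myeloid cells need to form.

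Array medians lay between 7.38 and 7.42 on the log2 scale, and the 3 arrays of a group limit the precision of every value. The lung epithelial genes fixed as a tissue check, among them Sftpc and Scgb1a1, had signals of 4723.5 or more on every array. The log2 ratio of 3-prime to 5-prime signal of beta-actin and GAPDH, a measure of RNA quality, was 1.67, 1.50 and 1.15 in silica replicates 1 to 3, and 1.23, 1.20 and 0.996 in control replicates 1 to 3. The 2 groups overlapped in this ratio, and silica replicate 1 had the highest value. Across all probe sets, 290 probe sets rose and 45 fell by limma at an adjusted p under 0.05. This total of 335 became 12 without silica replicate 1, 3 without silica replicate 2, 1 without control replicate 2, 0 without any 1 of the other arrays, and 0 with the ratio as a covariate.

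None of the 13 probe sets passed this threshold (limma, smallest adjusted p = 0.0733, for Adgre1), where 0.934% of all probe sets rose and 0.145% fell (1.08% in all). A count of 0 among 13 does not set these genes apart from a table with so few calls. At an unadjusted p under 0.05, 5 were higher and 1 was lower in silica, against 9.35% higher and 7.94% lower among all probe sets (17.3% in all). The same 6 were the probe sets whose groups did not overlap: 5 had every silica array above every control array and 1 had every silica array below, against 13.3% and 12.2% over all probe sets (25.6% in all). Adgre1, Csf2rb, Cx3cl1 and a pair of Csf1 probe sets made up the 5, and the dimmer Mertk probe set was the 1 that was lower. By leading probe set, 3 of 8 genes had silica above control without overlap, against 18.7% of all genes, and none had silica below, against 12.7%. Their median log2 fold change was 0.14, beside 0.02 over all genes. Because the genes were chosen with earlier results of these data known, these counts and shares are a description and no test. In whole-lung RNA a change in the number of cells of a type and a change in RNA per cell cannot be told apart.

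**Figure D1:**
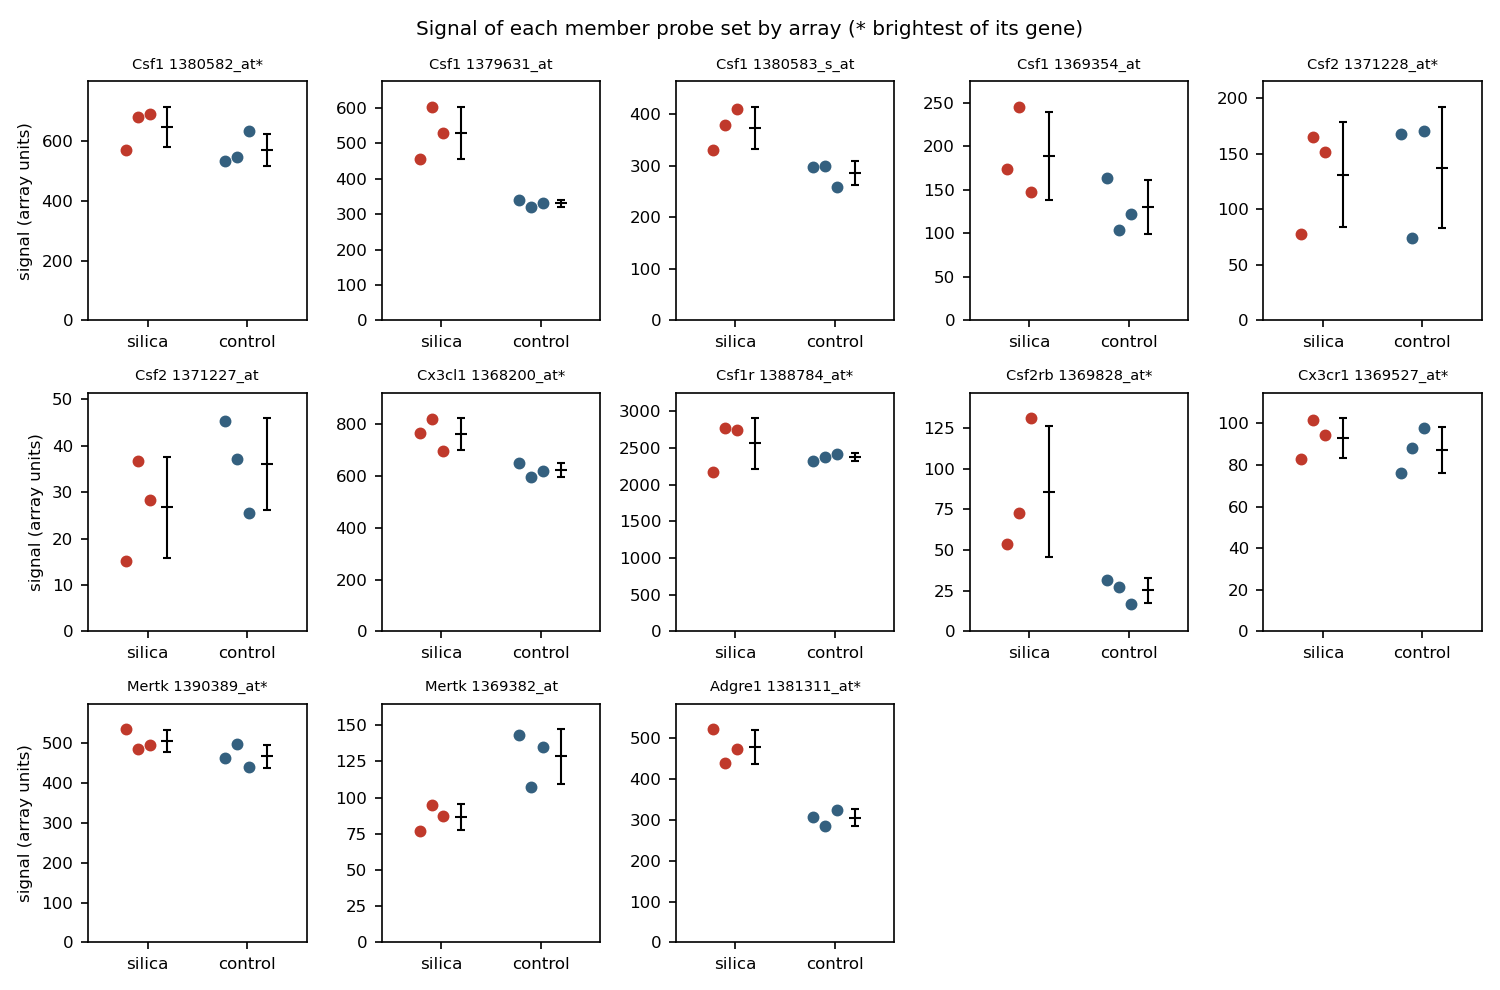
Signal (array units, axis from 0) of the 13 probe sets, with silica on the left and control on the right of each panel. Points are the 3 animals of a group, and the bar beside them is the mean with its SD. The silica points of Adgre1, at 440.2 to 522.1, all lie above its control points, at 284.5 to 323.9, while those of Csf1r straddle its control points.

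Among the ligands, Csf1 was read by 4 probe sets, all with a higher mean in silica but by unequal amounts. The leading probe set, 1380582_at, had 568.1, 678.8 and 689.5 in silica, against 531.8, 546.0 and 631.7 in control. The groups overlapped, since silica replicate 1 lay below control replicate 3, and the log2 fold change was 0.17 ± 0.13 (limma, adjusted p = 0.531). Probe set 1379631_at had 455.7, 602.5 and 530.2 in silica, against 340.2, 319.4 and 332.9 in control. All 3 silica animals were above all controls here, by 0.64 ± 0.13 on the log2 scale, without passing the threshold (limma, adjusted p = 0.0886). It passed in 3 of 16 alternative settings: with the dimmer 50% of probe sets left out (0.0132), with an intensity trend (0.0142) and with pseudocount 64 (0.0375, all limma adjusted p). Those settings called 1675, 1862 and 919 probe sets over the whole table, against 335 in the main fit. The highest limma adjusted p of 1379631_at over the 16 was 0.328.

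The remaining Csf1 probe sets were dimmer. Probe set 1380583_s_at, whose suffix marks probes that can match several transcripts, had 329.6, 378.9 and 409.9 in silica, against 296.9, 299.8 and 258.9 in control. These groups did not overlap either, with a log2 fold change of 0.37 ± 0.12 (limma, adjusted p = 0.217). Probe set 1369354_at had 174.3, 245.2 and 147.1 in silica, against 163.9, 103.5 and 122.5 in control, with overlap (log2 fold change 0.48 ± 0.23, limma adjusted p = 0.344), and its estimate was 0.29 without silica replicate 2. The estimates of the 4 probe sets thus ran from 0.17 to 0.64, and the brightest gave the smallest. Probe sets 1380582_at and 1380583_s_at are annotated to the same sequence record, so the 4 are not fully separate readings. Averaged over its probe sets, Csf1 had a log2 fold change of 0.42 ± 0.11 (limma adjusted p = 0.0972 over all genes so averaged).

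Csf2 gave no steady difference. Its leading probe set, 1371228_at, had 77.8, 165.2 and 151.4 in silica, against 167.8, 74.7 and 170.5 in control. Each group held 1 animal at less than 80 and 2 above 150, and the log2 fold change of -0.04 ± 0.38 (limma, adjusted p = 0.968) had a 95% interval from -0.96 to 0.87, so a change of up to 1.83-fold higher or down to 0.515 of control lay within it. The direction turned when silica replicate 1 (0.25), control replicate 1 (0.12) or control replicate 3 (0.13) was left out. The dimmer Csf2 probe set, 1371227_at, had 15.2, 36.7 and 28.3 in silica, against 45.4, 37.1 and 25.6 in control (log2 fold change -0.30 ± 0.24, limma adjusted p = 0.570), an estimate that was -0.09 without silica replicate 1 and -0.47 without silica replicate 2. The signals of this dimmer probe set lie around the lower quartile of the arrays, which was 33.9 to 37.0. Both Csf2 probe sets are annotated to the same sequence record.

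Cx3cl1, the fractalkine gene, had 766.8, 819.0 and 695.0 in silica, against 649.2, 594.8 and 618.4 in control. All silica animals were above all controls. The log2 fold change was 0.28 ± 0.11, or 1.22-fold, and it did not pass (limma, adjusted p = 0.250). It kept its direction in 16 of 16 alternatives, between 0.20 and 0.35, and passed in 0 of them. With the groups apart, leaving out arrays or changing the pseudocount could not have turned it.

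**Figure D2:**
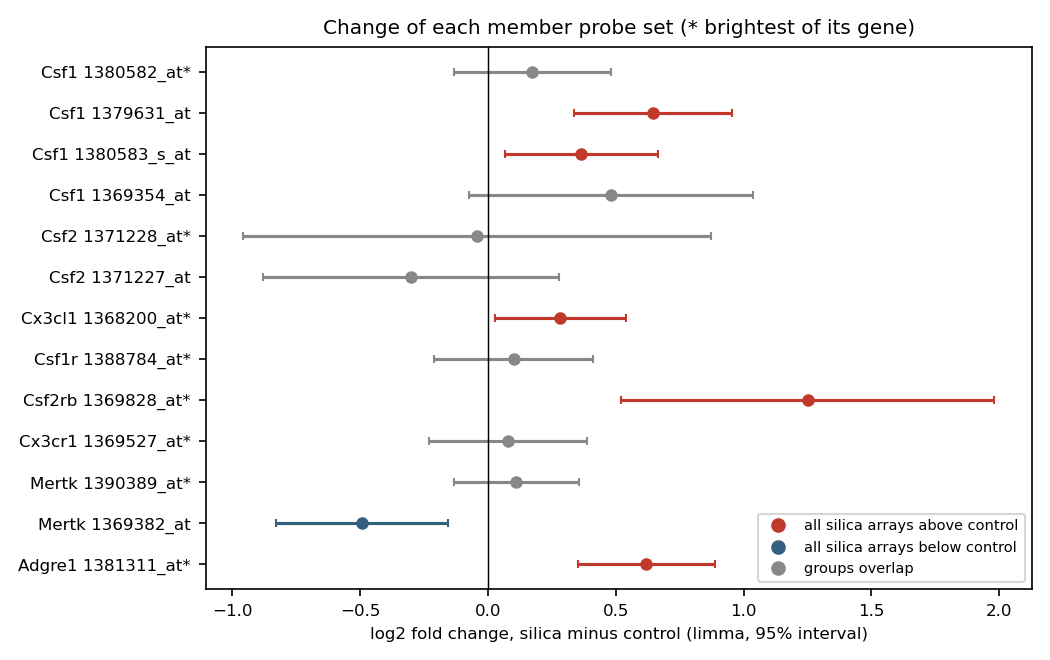
Log2 fold change of each probe set, silica minus control, with its unadjusted 95% interval from limma. Colours show whether the arrays of the groups overlapped. Csf2rb has the highest estimate, 1.25, with an interval from 0.52 to 1.98, and the probe sets of Mertk lie on opposite sides of 0.

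Among the receptors, Csf1r gave a small estimate with a wide silica spread. It had 2167.1, 2773.0 and 2751.3 in silica, against 2318.7, 2381.4 and 2424.5 in control. A pair of silica animals lay above all controls and silica replicate 1 lay below them, so the silica SD was 344 against 53.2 in control (n = 3 each). The log2 fold change was 0.10 ± 0.13 (limma, adjusted p = 0.727), with a 95% interval of 0.865-fold to 1.33-fold. Without silica replicate 1 the estimate was 0.22 (limma adjusted p = 0.413), without silica replicate 2 it was 0.04 and without silica replicate 3 it was 0.05. Silica replicate 1 was also the lowest of the silica group in 9 of the 13 probe sets, several of them of the same gene. How often it was the lowest over all probe sets was not computed. It had the highest 3-prime to 5-prime ratio, whose part in these values was not tested.

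Csf2rb, the beta chain shared by the receptors for granulocyte-macrophage colony-stimulating factor, interleukin 3 and interleukin 5, had the largest estimate of the 13. Its signal was 53.8, 72.9 and 131.2 in silica, against 31.7, 27.5 and 16.6 in control. Every silica animal was above every control, and the silica animals differed among themselves by more than the groups' nearest values did. The log2 fold change was 1.25 ± 0.30 (limma, adjusted p = 0.128), and it ran from 0.72 with pseudocount 64 to 1.68 with pseudocount 1. All 3 control signals were below the lower quartile of their arrays, so the size of the change depends on how dim signals are treated. It passed in 1 of 15 alternatives, with an intensity trend and robust spread (limma adjusted p = 0.0445). In that setting 1862 probe sets passed over the whole table, against 335 in the main fit.

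Cx3cr1, the fractalkine receptor gene of monocytes, resident macrophages and some lymphocytes, had 82.7, 101.6 and 94.6 in silica, against 75.9, 88.2 and 97.7 in control. The groups overlapped (log2 fold change 0.08 ± 0.13, limma adjusted p = 0.789), with an interval of 0.853-fold to 1.31-fold, and leaving out 1 array moved the estimate between -0.0022 (without control replicate 1) and 0.15 (without control replicate 3). Its ligand gene and this receptor gene were compared within arrays: the Cx3cl1 change exceeded the Cx3cr1 change by 0.20 on the log2 scale, with overlap (exact permutation test, two-sided, p = 0.3).

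Mertk, a receptor tyrosine kinase with which macrophages take up dying cells, gave estimates of opposite sign from its 2 probe sets. The leading one, 1390389_at, had 535.6, 485.1 and 496.3 in silica, against 463.0, 498.1 and 439.9 in control, with overlap (log2 fold change 0.11 ± 0.10, limma adjusted p = 0.617, and 0.07 without silica replicate 1 or without control replicate 3). The dimmer one, 1369382_at, had 77.0, 94.9 and 87.1 in silica, against 143.0, 107.0 and 135.0 in control. There every silica animal was below every control, by -0.49 ± 0.14 on the log2 scale (limma, adjusted p = 0.166). The changes of the 2 probe sets differed by 0.60 with no overlap of the within-array differences, which in an exact permutation test of 3 against 3 gives the smallest p it allows, 0.1 (two-sided). A direction for Mertk as a gene is therefore not given.

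Adgre1, which encodes the adhesion receptor known in mice as the macrophage marker F4/80, had the smallest p of the 13 probe sets. Its signal was 522.1, 440.2 and 473.3 in silica, against 308.1, 284.5 and 323.9 in control. The lowest silica animal stood well above the highest control, and the log2 fold change was 0.62 ± 0.11, or 1.54-fold (limma, adjusted p = 0.0733). It held its direction in 16 of 16 alternatives, between 0.55 and 0.68. With its groups apart, leaving out arrays or changing the pseudocount could not have turned it. Adgre1 passed with the dimmer 50% left out (0.00922), with an intensity trend (0.0125) and with pseudocount 64 (0.0284, all limma adjusted p). Those settings called 1675, 1862 and 919 probe sets over the whole table, against 335 in the main fit. Its highest limma adjusted p over the alternatives was 0.340. Its only probe set also passed where genes rather than probe sets were tested, with each gene averaged over its probe sets (limma adjusted p = 0.0308 over 14217 genes). The share of all genes that passed there was not computed.

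Within arrays, the change of Adgre1 exceeded that of Csf1r by 0.52, and the change of Csf2rb exceeded it by 1.15, both with no overlap of the groups (exact permutation test, two-sided, p = 0.1, the smallest possible, for each). Adgre1 had the smallest p and Csf2rb the largest estimate of all member probe sets. These pairs thus restate the values already given and are no separate support. The Csf1 change exceeded the Csf1r change by 0.07 with overlap (exact permutation test, p = 0.3). With 5 such pairs computed, the Benjamini-Hochberg values of these exact permutation tests were 0.167 for the 3 pairs that were apart and 0.3 for the others.

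The letters upstream of 3 of these genes are shown. Csf1r and Adgre1, both used as macrophage markers, had estimates of 0.10 and 0.62. Cx3cl1 is the ligand gene whose groups were apart by leading probe set. The letters are the 250 bases before the RefSeq gene start in the rat assembly GRCr8, written in the direction of the gene. In capitals is GAGGAA, a fixed form of the PU.1 motif, or its reverse complement TTCCTC. Other forms of the motif were not searched for and are not marked.
Csf1r, chr18:56834129-56834378, plus strand: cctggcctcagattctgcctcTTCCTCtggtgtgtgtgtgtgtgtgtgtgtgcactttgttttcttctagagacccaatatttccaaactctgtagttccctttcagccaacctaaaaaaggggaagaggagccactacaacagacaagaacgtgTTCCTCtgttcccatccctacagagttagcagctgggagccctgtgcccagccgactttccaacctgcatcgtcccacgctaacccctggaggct
Adgre1, chr9:2329190-2329439, plus strand: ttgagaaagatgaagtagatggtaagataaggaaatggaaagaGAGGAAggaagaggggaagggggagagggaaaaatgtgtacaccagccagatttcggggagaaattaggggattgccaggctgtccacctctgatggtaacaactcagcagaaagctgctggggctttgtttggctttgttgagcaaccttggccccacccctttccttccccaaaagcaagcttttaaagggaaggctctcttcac
Cx3cl1, chr19:10242821-10243070, minus strand: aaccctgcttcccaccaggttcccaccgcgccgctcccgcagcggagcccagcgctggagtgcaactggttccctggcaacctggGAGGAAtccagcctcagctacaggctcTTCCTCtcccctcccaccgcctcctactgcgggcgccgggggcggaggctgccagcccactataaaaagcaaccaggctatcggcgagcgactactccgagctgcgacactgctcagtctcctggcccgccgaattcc
Csf1r held TTCCTC starting 229 and 95 bases before the start, Adgre1 held GAGGAA at 207 bases, and Cx3cl1 held GAGGAA at 165 and TTCCTC at 138 bases. RefSeq windows were found for 6 of the 9 genes. Of these 4 held GAGGAA on either strand, Csf2 being the other, while those of Cx3cr1 and Mertk did not. Among all 33469 windows of this length 23.3% held it. The match says only that these letters are present, and a window without them may hold another form of the motif.

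The surrounding pathway genes were each read by their brightest probe set, and by that measure 1.55% of all genes rose and 0.120% fell (1.67% in all). At an unadjusted p under 0.05, 12.6% of all genes were higher and 7.24% lower, and 53.7% had an estimate above 0. Over all companion lists 18 genes passed. With 1 array left out at most 1 did so (Ccl2, without silica replicate 1 or without silica replicate 2), and none with the replicate block or the RNA quality covariate. In the Csf1r pathway 0 of 11 measured genes passed (limma), with 7 higher and 0 lower at an unadjusted p under 0.05, all 11 above 0 and a median log2 fold change of 0.72 beside 0.02 over all genes. Inpp5d, a lipid phosphatase that restrains myeloid signalling, had 775.0, 899.3 and 806.6 in silica, against 484.0, 546.1 and 506.8 in control (log2 fold change 0.67 ± 0.11, limma adjusted p = 0.0563). Vav1, an exchange factor of blood cells, had 455.2, 567.3 and 504.2 in silica, against 308.2, 314.5 and 274.9 in control (log2 fold change 0.73 ± 0.12, limma adjusted p = 0.0606). Both groups of values were apart. Il34, the second ligand gene of the receptor, had a log2 fold change of 0.06 ± 0.10 (limma adjusted p = 0.792).

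In the granulocyte-macrophage colony-stimulating factor pathway 2 of 16 genes rose and none fell, and the median was 0.25. Csf2ra, the alpha chain that pairs with the product of Csf2rb, had 1169.0, 1219.6 and 1100.3 in silica, against 613.3, 618.5 and 522.7 in control. It rose by 0.98 ± 0.11 on the log2 scale (limma, adjusted p = 0.0330), so the receptor's alpha chain passed the threshold where its dim beta chain did not, a contrast that was not itself tested. Bhlhe41, a transcription factor of alveolar macrophage identity in mice, had 2245.1, 1999.7 and 2139.2 in silica, against 1084.5, 1125.6 and 980.7 in control, and rose by 0.99 ± 0.11 (limma, adjusted p = 0.0307). Csf3, Il3, Il5, Il5ra and Socs1 were under 50 on every array.

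Of 11 measured genes around Mertk (the related receptors Axl and Tyro3, the bridging ligands Gas6 and Pros1, and engulfment partners) none passed (limma), with 2 higher and 1 lower at an unadjusted p under 0.05 and a median of 0.07. Lgals3, galectin 3, came closest, with 11205.7, 11797.8 and 11178.5 in silica, against 7942.9, 7535.1 and 7639.7 in control (log2 fold change 0.56 ± 0.09, limma adjusted p = 0.0565). Elmo1, an engulfment adaptor gene, had a log2 fold change of 0.36 ± 0.11 (limma adjusted p = 0.200). Around fractalkine 2 of 6 genes rose, the monocyte attractants Ccl2 and Ccl7, by 2.99 and 2.80 on the log2 scale. The sheddase genes Adam10 and Adam17, whose products release fractalkine from the membrane, had -0.71 ± 0.33 (limma adjusted p = 0.330) and 0.14 ± 0.10 (limma adjusted p = 0.556), and Ccr2, the monocyte receptor gene, had -0.21 ± 0.35 (limma adjusted p = 0.792).

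With Spi1 itself not read, other myeloid transcription factors were looked at. Of 16 measured, 1 rose: Irf8, a partner of PU.1 in monocyte development, with 1040.0, 1270.3 and 1255.4 in silica, against 609.9, 585.3 and 636.4 in control (log2 fold change 0.94 ± 0.12, limma adjusted p = 0.0399). None fell, 15 of 16 were above 0, and the median was 0.30.

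**Figure D3:**
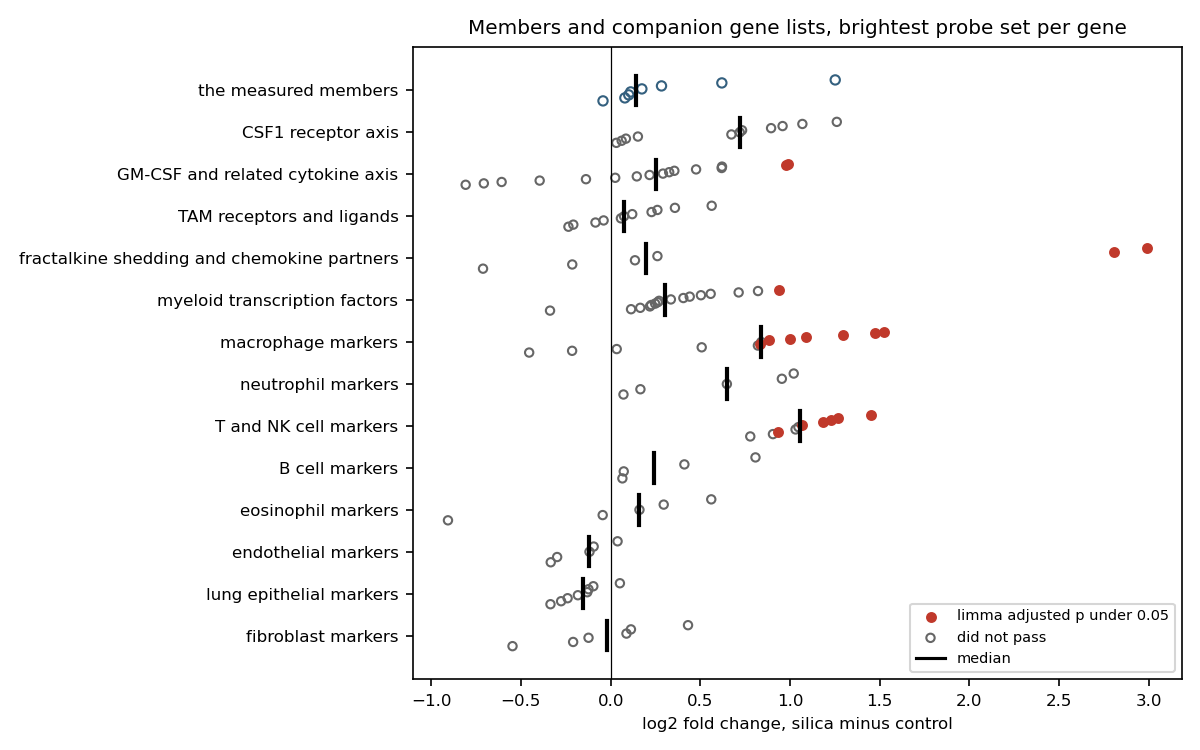
Log2 fold change, silica minus control, of the measured members (top row) and of each companion list, 1 point for each gene by its brightest probe set. Filled points passed the limma threshold and bars are medians. The members' median of 0.14 lies well left of those of the macrophage markers, 0.84, and the T and NK cell markers, 1.06.

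Markers of cell types that the lung samples could hold were read beside these genes. Of 13 measured macrophage markers 7 rose and none fell, with a median of 0.84 and summed signals of 40965.6 to 49605.6 in silica against 36176.0 to 36940.7 in control. Lyz2, which did not pass, made up the largest part of these sums, with a mean of 17624.1 in silica against 20196 in control. The 4 with the smallest p were C1qa, C1qc, Itgam and Cd68. C1qa, a complement component of macrophages, had a log2 fold change of 1.47 ± 0.12 (limma adjusted p = 0.0176), C1qc had 1.09 ± 0.14 (limma adjusted p = 0.0402), Itgam, an integrin chain of myeloid cells, had 1.53 ± 0.16 (limma adjusted p = 0.0307) and Cd68, a lysosomal glycoprotein of macrophages, had 0.88 ± 0.12 (limma adjusted p = 0.0431). The other 6 measured markers besides these and Aif1, C1qb and Itgax did not pass. Fcgr1a, Cd14 and Laptm5 had estimates of 0.84, 0.82 and 0.51 with all silica animals above all controls (limma adjusted p = 0.110, 0.136 and 0.112). Mrc1, the mannose receptor gene, had 0.03 ± 0.12 (limma adjusted p = 0.917), Lyz2, a lysozyme gene of macrophages and epithelium, had -0.21 ± 0.16 (limma adjusted p = 0.544), and Cd163, a hemoglobin scavenger receptor gene, had -0.45 ± 0.33 (limma adjusted p = 0.535). Of the 10 T and NK cell markers 6 rose, led by Zap70, Cd3d, Cd3e and Nkg7, and the median was 1.06, with sums of 9139.7 to 10753.4 in silica against 4542.2 to 4817.1 in control. The part of either cell type in the values of Csf1, Csf2rb, Cx3cr1 and Adgre1 was not tested.

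No gene passed (limma) among the other markers. The 5 neutrophil markers had a median of 0.65, which was 0.35 without silica replicate 2, led by S100a9 and S100a8, with sums of 9056.7 to 15489.8 in silica against 5163.4 to 6587.0 in control, and 1 was higher at an unadjusted p under 0.05. S100a9 made up most of these sums, with a mean of 8759.5 in silica against 4398.5 in control. Camp, Cxcr2 and Mmp8 overlapped between groups, with 1.02 ± 0.62, 0.17 ± 0.21 and 0.07 ± 0.29 (limma adjusted p = 0.450, 0.733 and 0.925). The 4 B cell markers had a median of 0.24, led by Blnk and Cd22, and sums of 1073.2 to 1083.0 in silica against 772.1 to 890.7 in control, with 2 higher at an unadjusted p under 0.05. The others, Cd79b and Ms4a1, overlapped between groups, with 0.07 ± 0.15 and 0.07 ± 0.16 (limma adjusted p = 0.839 and 0.868). Of the 5 eosinophil markers, Epx, Prg2 and Siglec5 were under 50 on every array, 3 of 5 estimates were above 0 and the median was 0.16, which was -0.14 without control replicate 1. Ccr3 had 0.56 ± 0.27 (limma adjusted p = 0.346), and Alox15, with -0.91 ± 0.26 (limma adjusted p = 0.169), was the 1 lower at an unadjusted p under 0.05. The medians of the endothelial, epithelial and fibroblast markers were -0.12, -0.16 and -0.02. The endothelial median was -0.27 with the RNA quality covariate, the epithelial one was -0.06 under quantile normalization and -0.26 without silica replicate 2, and the fibroblast one changed sign in 4 of 16 alternatives. At an unadjusted p under 0.05 these lists held 0, 0 and 1 higher and 1, 3 and 0 lower genes, with Kdr, Emcn, Aqp5, Epcam, Col1a1 and Pdgfra nearest to passing in their lists. The summed endothelial signal, from a cell type that makes fractalkine, was 22676.9 to 26486.4 in silica against 26946.1 to 27860.0 in control, and its part in the Cx3cl1 values was not tested. Of its 5 genes only Kdr had groups apart, with a mean of 6589.5 in silica against 8311.7 in control. Pecam1 was the 1 with an estimate above 0, at 0.04 ± 0.13. The epithelial sums were 120519.3 to 143110.3 in silica against 136470.4 to 144303.1 in control.

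The genes most like each member over the 6 arrays were found by Pearson's r among 10595 other genes of at least 6.6 on the log2 scale. With 6 arrays in 2 groups many genes reach a high r: 629 passed 0.9 for Adgre1 and 620 for Cx3cl1, against 50 for Csf1r, 55 for Csf1, 31 for Csf2, 33 for Cx3cr1 and 207 for Mertk. The closest were Osbpl8, Rtn4 and Rbx1 for Adgre1 (r from 0.993 to 0.999), Dnajc22, Ifi27l2b and Yars1 for Cx3cl1 (0.991 to 0.997), Gemin5, Capn7 and Fibp for Csf1r (0.973 to 0.989) and Capza1, Bckdhb and Esyt1 for Csf1 (0.984 to 0.997). They were Wdcp, Fuom and Lpar6 for Csf2 (0.969 to 0.978), Plaa, Cnr1 and Ubl5 for Cx3cr1 (0.967 to 0.991) and Gsdmd, Alg9 and Atg2a for Mertk (0.988 to 0.990). Csf2rb was below the brightness minimum and was not ranked. These values describe 6 arrays and carry no test.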

How the data were processed

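Gene expression in lung was measured on 1-colour short-oligonucleotide arrays, 3 silica and 3 control. Per the labels' protocols, total RNA was extracted with a phenol-based reagent and labelled with biotin during in vitro transcription. What the authors deposited is a linear signal intensity for each probe set and array, summarised with software that the labels do not name. Every array had a mean of 500.14 to 500.15 once 2% of its values were trimmed from either end, so a single scaling factor for each array had been applied. The 57 control probe sets were left out.

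Genes were named from the platform annotation, updated by identifier to the GRCr8 RefSeq table: 20826 probe sets had 1 gene (20758 matched), 436 had several and 9780 were not listed. Log2(signal + 16) was compared by limma 3.58.1 (lmFit, eBayes) in R 4.3.3, with degrees of freedom of 4 (residual) and 2.18 (prior), and p-values were adjusted by Benjamini-Hochberg across 31042 probe sets. P-values measure the spread between these animals.

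The members, and the 13 companion lists of 132 genes, were chosen with earlier results of these data known. Named were all members and, in each list, up to 4 genes past the threshold by smallest p, or else the 2 with the smallest p. Il34, Adam10, Adam17, Ccr2, Mrc1, Lyz2, Cd163, Fcgr1a, Cd14, Laptm5, Aif1, C1qb, Itgax, Camp, Cxcr2, Mmp8, Cd79b and Ms4a1 were named after their values were seen. Alternatives were quantile normalization, median centring, the dimmer 50% left out, an intensity trend with robust spread, the replicate block, pseudocounts 1 and 64, array weights, each array left out, silica replicate 1 and control replicate 3 left out together, an RNA quality covariate and gene means. On simulated arrays of 31042 probe sets with 50 changed at each size, limma called 0% of those changed by 0.5 on the log2 scale, 48% for 1, 68% for 2 and 98% for 4, and also 4 unchanged ones.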

Additional observations from a re-analysis of the deposited data

How the results depend on the processing

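No member probe set passed under quantile normalization, median centring, the replicate block, pseudocount 1, array weights, the RNA quality covariate or with any 1 array, or silica replicate 1 and control replicate 3 together, left out (0 in each). Passing were 2 with the dimmer 50% left out (Adgre1 and Csf1 1379631_at), 3 with an intensity trend and robust spread (these and Csf2rb) and 2 with pseudocount 64, or 1, 2 and 1 genes by leading probe set. Over the whole table those 3 settings gave 1675, 1862 and 919 probe sets (1044, 1141 and 707 higher), against 335, and 39, 42 and 30 list genes, against 18. Averaging probe sets gave 1 gene, Adgre1, but the share of all genes that passed there was not computed, so this count has nothing to be set against. Pseudocount 1 gave 43 probe sets and 2 list genes, the replicate block 1 and 0, the RNA quality covariate 0 and 0, and leaving out silica replicate 1 with control replicate 3 also 0 and 0. Leaving out each array gave 0 to 12 probe sets (12 without silica replicate 1, 3 without silica replicate 2, 1 without control replicate 2 and 0 without silica replicate 3, control replicate 1 or control replicate 3) and 0 to 1 list genes. The replicate numbers share no stated origin: same-numbered arrays had correlations of 0.09, 0.04 and 0.09 in their deviations from group means, none over 0.1, although each correlated best with its own number, so the block is not read as a pairing. Of the member estimates, 6 turned: Csf2 1371228_at without silica replicate 1 (0.25), control replicate 1 (0.12) or control replicate 3 (0.13; leave-one-out range -0.39 to 0.25), with silica replicate 1 and control replicate 3 out (0.43) and with the RNA quality covariate (0.39), and Cx3cr1 without control replicate 1 (-0.0022; leave-one-out range to 0.15). The other 197 kept their direction. For probe sets whose groups did not overlap, leaving out arrays or changing the pseudocount could not have turned it. The cause of the changes between settings was not tested. List medians moved by more than the spread between arrays in 20 cases and stayed within it in 187. Their ranges were 0.59 to 0.81 for the Csf1r pathway, 0.17 to 0.42 for that of Csf2, 0.14 to 0.42 around fractalkine, 0.79 to 0.96 for macrophage, 1.00 to 1.14 for T and NK cell and 0.07 to 0.29 for B cell markers. The dim signals of control Csf2rb and of the dimmer Csf2 probe set limit the size of any fold given for them.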
